A study of Rattus norvegicus with 4 samples.

Results

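Broad stretches of the rat genome in which Hdac3 reads outnumbered p300 reads, each scaled to its library, were examined in oligodendrocyte precursor cells (OPCs) and in differentiating oligodendrocytes. The genome (chromosomes 1 to 20, build rn4) was divided into windows of 500 kb, and 5083 of 5127 windows held at least 100 reads in each of the 4 libraries. Of these, 820 had an Hdac3/p300 ratio above 1.2 in OPCs and again above 1.2 at d3, which is 16.1% of the usable windows. The windows were chosen by these ratios, so the ratios describe the choice and were not tested. With the libraries scaled so that the median window had a ratio of 1, in place of scaling by total reads, 307 windows passed, all of them among the 820.

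Chromatin immunoprecipitation followed by sequencing (ChIP-seq) gave 4 libraries, with 1 library for each pair of antibody (Hdac3 from Abcam or p300 from Santa Cruz) and stage (OPC or d3), prepared as SOLiD fragment libraries. All cells were primary cultures of cortical OPCs from Sprague Dawley rat pups at postnatal day 2, purified by differential detachment, with no genetic change given in the labels. The isolated OPCs behind all 4 libraries were collected directly or kept in Sato medium with the mitogens PDGF-AA (10 ng/ml) and bFGF (20 ng/ml). For the d3 libraries, labelled as differentiating oligodendrocytes, the OPCs were differentiated in Sato medium with ciliary neurotrophic factor (10 ng/ml) and T3, a thyroid hormone (15 nM). The labels do not say how many pups or cultures entered a library, and d3 is explained no further there. With no expression data, the stage of the cells could not be checked against marker genes. With 1 library per group and no input library used here, replicate error is unknown for every difference given here. Neighbouring windows are not independent and windows are not replicates. Intervals below are 95% intervals for counting error or, for medians, of the median over windows. Those of medians treat windows as independent, so they are too narrow where neighbours are alike. They do not give the spread of single windows.

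Hdac3 is a histone deacetylase that works as the catalytic subunit of the NCoR and SMRT corepressor complexes, and removal of acetyl groups from histones is generally tied to repressed chromatin. The acetyltransferase p300 is a coactivator that acetylates histones at active enhancers and promoters. ChIP-seq reads outside narrow binding sites form a broad background whose density varies along chromosomes, and a ratio between antibodies in 500 kb windows reads mostly this broad signal. Windows are given by their rn4 coordinates alone, since an annotation or sequence of that build was not used here.

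The windows stood out for being poor in p300, not for being rich in Hdac3. The median read density of p300 in the 820 windows was 116 RPM (reads per 1000000 reads of the library) in OPCs and 114 RPM at d3, against a mean of 197 RPM per usable window in each library. The median of Hdac3 was 152 RPM in OPCs and 147 RPM at d3, also below that mean. Relative to the mean window these medians were 0.589 and 0.578 for p300 and 0.774 and 0.746 for Hdac3. In the 4263 other usable windows the medians lay between 207 and 213 RPM in all 4 libraries. The name "Hdac3-rich" therefore holds only relative to p300.

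**Figure D1:**
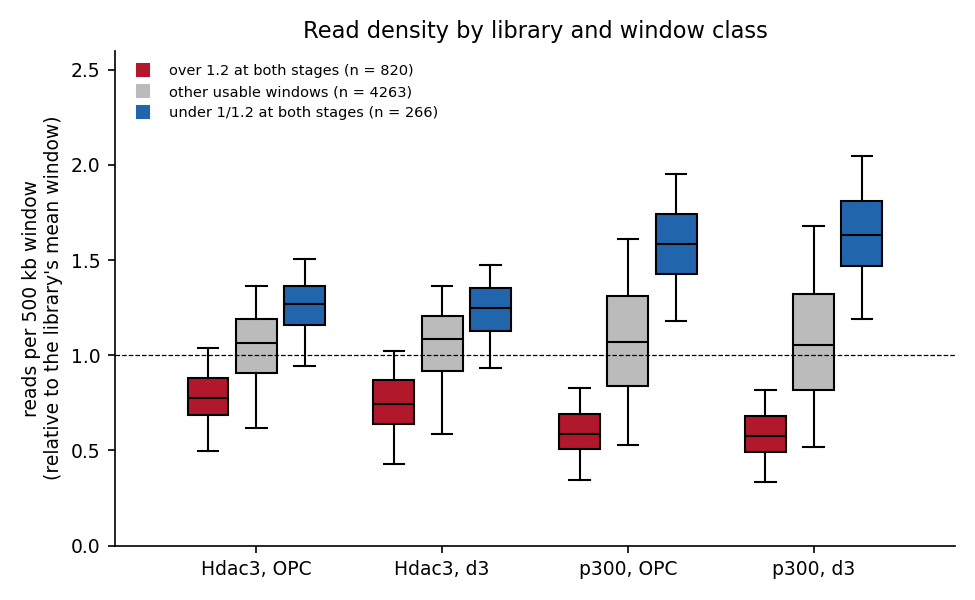
Reads per 500 kb window divided by the mean usable window of the same library (y axis), for the 4 libraries (x axis) and 3 window classes; boxes span the quartiles with the median as a line and whiskers the 5th to 95th percentile of windows. The medians of the 820 windows with a ratio above 1.2 lie below 1 in all 4 libraries, at 0.774 and 0.746 for Hdac3 and 0.589 and 0.578 for p300.

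Counts of windows showed the same. Hdac3 was under its own genome mean in 748 of the 820 windows in OPCs (91.2%) and in 759 at d3 (92.6%), where 46.6% and 45.1% of all usable windows were. For p300 the counts were 811 and 812, against 51.2% and 52.8% of all usable windows. All 4 libraries were under their means in 734 windows (89.5%), and 37 windows (4.51%) had Hdac3 above and p300 below the mean at both stages, where 4.41% of all usable windows did. The lowest and highest densities of Hdac3 in OPCs among the 820 were 44.4 and 1186 RPM, and of p300 in OPCs 30.6 and 756 RPM. At d3 they were 34.1 and 1067 RPM for Hdac3 and 27.8 and 862 RPM for p300, and all 4 of the highest values came from a single window on chromosome 16, described below. The densities are made of the reads that chose the windows, so these counts are a description.

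The 266 windows with a ratio under 1/1.2 at both stages (5.23% of usable windows) were the reverse. They had a median of 312 RPM of p300 in OPCs and 321 RPM at d3, or 1.59 and 1.63 times the mean window. Their Hdac3 medians were 250 and 245 RPM, or 1.27 and 1.25 times the mean. Both antibodies thus ran from low to high density in the same order of window classes. Given the rise of Hdac3, the wider range of p300 follows from the ratios that define the classes. With scaling to the median window ratio there were 525 such windows beside the 307 of high ratio, so which of the classes was larger depended on the scaling.

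The ratio itself was modest in most windows. Its median over the 820 was 1.301 in OPCs (interval 1.29 to 1.31) and 1.27 at d3 (1.27 to 1.28), with highest values of 2.26 and 1.92. The lower of both stages' ratios was between 1.2 and 1.25 in 421 windows, above 1.3 in 165 and above 1.5 in 6. The interval of the ratio lay above 1 at both stages in 818 of the 820 windows, beside 30.7% of all usable windows, and above 1.2 at both stages in 58, beside 1.14%. Just inside the threshold were windows on chromosome 7 from 82500001 to 83000000 (lower ratio 1.2002), chromosome 9 from 54500001 to 55000000 (1.2003), chromosome 13 from 43000001 to 43500000 (1.2003), chromosome 6 from 33500001 to 34000000 (1.2004) and chromosome 4 from 73000001 to 73500000 (1.2004). Just outside were chromosome 20 from 24500001 to 25000000 (1.1997), chromosome 7 from 53000001 to 53500000 (1.1996), chromosome 2 from 221500001 to 222000000 (1.1995), chromosome 3 from 139000001 to 139500000 (1.1994) and chromosome 1 from 6500001 to 7000000 (1.1991). These differences are far within counting error.

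**Figure D2:**
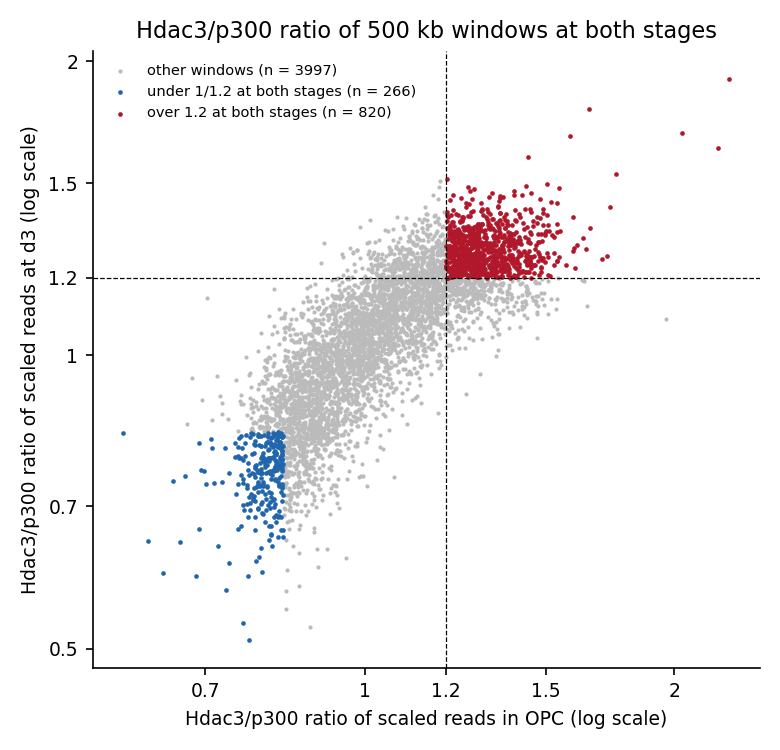
Hdac3/p300 ratio of scaled reads in OPCs (x axis) and at d3 (y axis) for 5083 windows of 500 kb, on log scales, 1 point per window; dashed lines mark the threshold of 1.2. The 820 windows in red adjoin the continuous cloud of the others, and 6 of them exceed 1.5 at both stages.

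Whether a choice made at 1 stage held in the libraries of the other was read next, since those libraries take no part in that choice. In OPCs 1180 windows (23.2%) exceeded 1.2, and at d3 their median ratio was 1.24 (1.24 to 1.25), against 1.001 in the remaining windows. Of the 1180, 820 exceeded 1.2 at d3 (69.5%), beside 24.9% of all usable windows, and 1177 exceeded 1 (99.7%), beside 61.6%. At d3 1266 windows exceeded 1.2, and their median ratio in OPCs was 1.24 (1.23 to 1.25), against 0.962 in the rest. The low density was also present in the unused libraries: windows chosen in OPCs had 144 RPM of Hdac3 and 116 RPM of p300 at d3, against 217 and 215 RPM in the rest. Over the 5083 windows the log2 ratios in OPCs and at d3 had a Pearson r of 0.810, a description across windows that are not independent of their neighbours.

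Reads on the other strand gave the same ordering. With at least 50 reads per strand in each library, 724 windows exceeded 1.2 at both stages on the plus strand. Their median ratio in OPCs was 1.31 on that strand and 1.29 on the minus strand, and at d3 it was 1.29 and 1.26. Of the 724, 393 (54.3%) exceeded 1.2 at both stages on the minus strand, where 14.5% of usable windows did, and 712 (98.3%) exceeded 1 at both stages, where 49.3% did. Single windows therefore changed sides of the threshold between strands, while the excess above 1 was seen on both strands in nearly all. Both strands come from the same 4 libraries, so this reading covers counting error only.

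The windows lay together along chromosomes. They formed 401 runs of touching windows, of which 219 were single windows. The other 182 runs held 601 of the 820 windows (73.3%), and 56 runs of 4 or more windows held 313 (38.2%). A usable window next to one of the 820 was itself one of them in 51.9% of cases, against 16.1% of all usable windows. The share fell to 42.8% at a distance of 1 Mb, 31.8% at 2 Mb, 25% at 5 Mb and 18.1% at 20 Mb. As a description across libraries, the log2 ratio in OPCs of a window had an r of 0.658 with the log2 ratio at d3 of its neighbour (5034 pairs), 0.316 at a distance of 2 Mb and 0.075 at 10 Mb. The share in runs of at least 2 windows was 44.6% for the 307 windows under scaling to the median ratio, 6.04% of usable windows. It was 27.8% for the 212 windows with at most 10% of their 1 kb bins empty, a limit chosen after seeing the data. That limit kept 2505 windows, of which 8.46% passed. The windows left out break runs, so this share cannot be compared with the 73.3%.

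**Figure D3:**
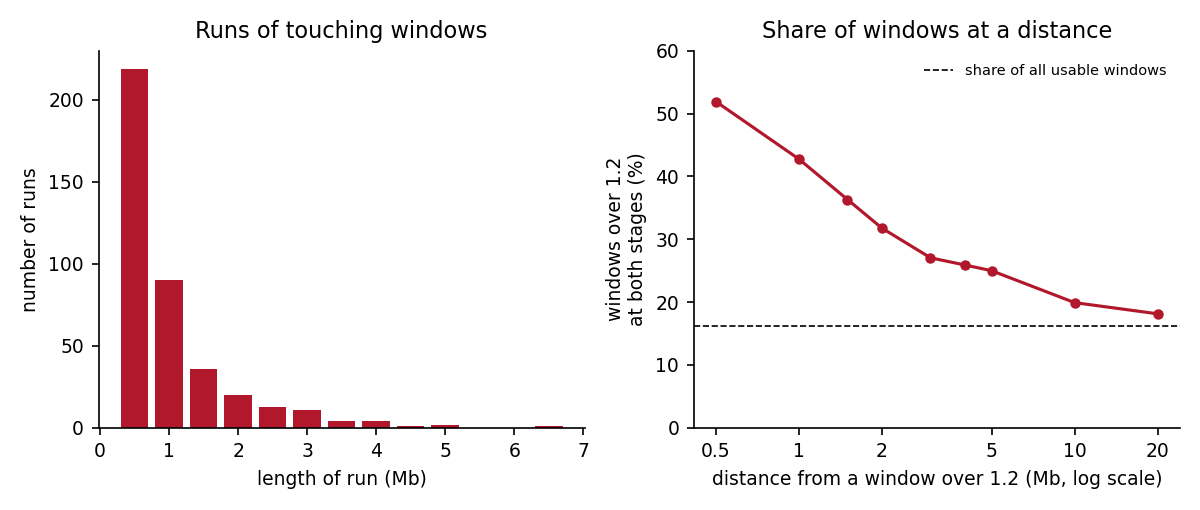
Left, number of runs (y axis) by length in Mb (x axis) of touching windows with a ratio above 1.2 at both stages. Right, percent of usable windows above 1.2 at both stages (y axis) by distance in Mb, on a log scale, from such a window (x axis), with the share of all usable windows dashed. Of 401 runs 219 are single windows, and the share falls from 51.9% at 0.5 Mb to 18.1% at 20 Mb, near the overall 16.1%.

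The longest run was on chromosome 13 from 23500001 to 30000000 and spanned 13 windows (6.5 Mb). Its mean density per window was 136 RPM for Hdac3 in OPCs and 130 RPM at d3, and 97.5 RPM for p300 in OPCs and 100 RPM at d3. The ratio over the whole run was 1.396 (1.34 to 1.45) in OPCs and 1.295 (1.26 to 1.33) at d3. Hdac3 thus stood at 0.693 and 0.661 of its mean window there and p300 at 0.496 and 0.510, so that both were sparse and p300 more so.

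Runs of 10 windows (5 Mb) followed on chromosome 11 from 5500001 to 10500000 and on chromosome 14 from 47500001 to 52500000. The chromosome 11 run had 148 RPM of Hdac3 at both stages, and 109 RPM of p300 in OPCs and 113 RPM at d3, for ratios of 1.35 (1.299 to 1.41) and 1.31 (1.27 to 1.35). The chromosome 14 run had 127 and 119 RPM of Hdac3 and 96.0 and 95.4 RPM of p300, for ratios of 1.32 (1.27 to 1.38) and 1.25 (1.205 to 1.29). Its reads had a mean score of 67.8, against 84.8 in the chromosome 11 run and 80.01 in the chromosome 13 run. A second run on chromosome 11, from 38000001 to 42500000, spanned 9 windows with ratios of 1.401 (1.34 to 1.46) and 1.31 (1.26 to 1.36). The fifth, on chromosome 14 from 57500001 to 61500000, spanned 8 windows with 1.31 (1.25 to 1.38) and 1.32 (1.27 to 1.38). These 5 runs held few narrow sites, between 0 and 6 calls over the 4 libraries in each.

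Chromosomes differed in how much of them the windows covered. The share was highest on chromosome 11 (54 of 176 usable windows, 30.7%), chromosome 14 (60 of 222, 27.0%) and chromosome 13 (60 of 223, 26.9%). It was lowest on chromosome 10 (14 of 222, 6.31%), chromosome 17 (13 of 192, 6.77%) and chromosome 1 (49 of 527, 9.30%). Chromosome 2 held the most windows, 96 of 513 (18.7%). Windows of 1 run are not independent, so no interval is given for these shares.

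Density was higher outside the edges of the runs than inside. In the outermost windows of the 56 runs of 4 or more, the median density relative to the mean window was 0.769 in OPCs and 0.754 at d3 for Hdac3, and 0.579 and 0.568 for p300. In the first window outside it was 0.881 and 0.931 for Hdac3 and 0.771 and 0.761 for p300. At a centre distance of 3.75 Mb it was 0.946 and 0.929 for Hdac3 and 0.804 and 0.811 for p300. Of the 109 windows at that distance 36 were themselves among the 820, in other runs, and the medians over all usable windows were 1.02 and 1.03 for Hdac3 and 0.984 and 0.971 for p300. The step between the last window inside and the first outside follows in part from the threshold, since the first window outside failed it. Over all 673 usable windows that touched one of the 820 without passing, the median ratio was 1.15 in OPCs and 1.17 at d3, and 373 of them exceeded 1.2 at 1 stage. Of these 673 windows 0 were among the p300-rich ones, which make up 5.23% of usable windows.

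**Figure D4:**
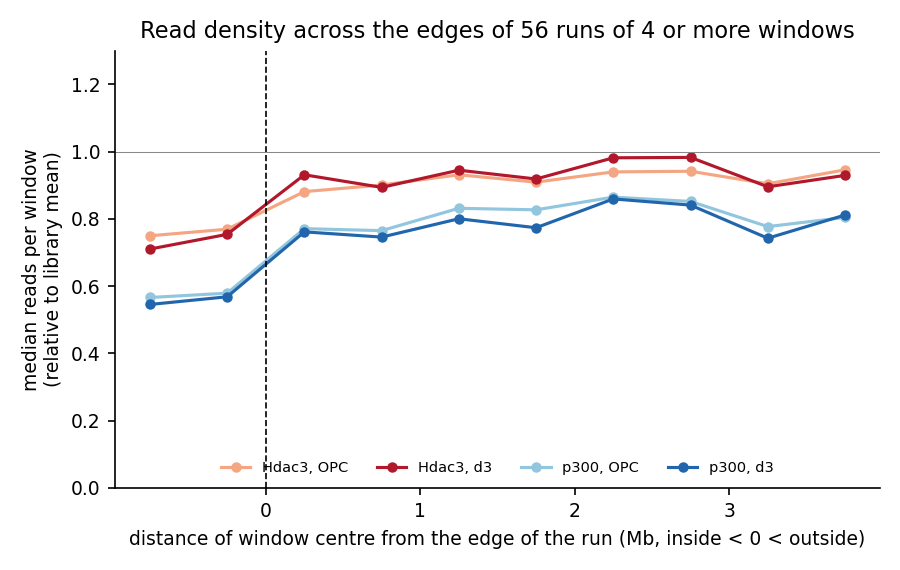
Median reads per window relative to the library's mean window (y axis) by distance of the window's centre from the edge of a run in Mb (x axis, negative inside), for the 56 runs of 4 or more windows and the 4 libraries. Inside, p300 lies at 0.545 to 0.579 and Hdac3 at 0.710 to 0.769; outside, where windows of other runs are included from the second window on, the values at 3.75 Mb are 0.946 and 0.929 for Hdac3 and 0.804 and 0.811 for p300.

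Within a window the excess was spread out. The 820 windows were split into 8175 parts of 50 kb, of which 7937 held at least 40 reads over the 4 libraries, with a median of 287. The ratio of Hdac3 to p300, summed over stages, exceeded 1 in 7740 of these parts (97.5%), against 58.2% of the parts of all usable windows. It exceeded 1.2 in 72.6%, against 26.5%. Hdac3 exceeded p300 at each stage taken alone in 84.9% of the parts, against 41.7%. The parts hold the reads that chose the windows, so higher shares than in all usable windows follow from the choice. They describe only how the excess lay within a window. Leaving out all called narrow sites with 1 kb to either side gave 816 windows, of which 810 were among the 820, and the median ratios in the 820 were then 1.302 and 1.27. The excess was thus as large without the called sites. In simulated data 11% to 23% of bins with a 5-fold excess were called, depending on the library, so weaker sites were left in.

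Narrow sites were called in 1 kb bins at equal depth. A call marked a bin with at least 3-fold more reads than its surroundings. For Hdac3 in OPCs 83 of 321 sites lay in the 820 windows (25.9%, exact binomial interval 21.2 to 31.0%), above the 16.1% of usable windows that they make up. Among Hdac3 sites at d3 67 of 358 did (18.7%, 14.8 to 23.1%). Of the p300 sites, the windows held 43 of 311 (13.8%, 10.2 to 18.2%) in OPCs and 40 of 262 (15.3%, 11.1 to 20.2%) at d3. These 3 intervals include 16.1%, and at d3 the side of both shares depended on how sites were called. Without thinning the Hdac3 share at d3 was 13.6% (11.6 to 15.7%), and with the genome mean alone as background it was 25.2% (22.5 to 28.2%). With that background the p300 share at d3 was 13.0% (11.2 to 15.0%). The same windows held 12.7%, 12.3%, 9.71% and 9.54% of the reads. Sites were concentrated in few windows: 70 of the 820 held a call in any library (8.54%), against 11.6% of the other usable windows, and 22 held calls in all 4 libraries (2.68%), close to the 2.22% of all usable windows.

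Most of these sites were made of reads with low scores. Each deposited read carries a score from 8 to 100 whose scale is not documented. The median over sites of the mean score was 39.3 in OPCs and 49.6 at d3 for Hdac3, against 45.8 and 72.2 at the sites outside. For p300 it was 42.4 and 44.6, against 58.2 and 64.2. Of Hdac3 sites with a mean score of at least 80, 3 lay inside and 32 outside in OPCs (8.57% inside, 1.80 to 23.1%), and 13 and 134 at d3 (8.84%, 4.79 to 14.6%). Of such p300 sites 4 and 98 did in OPCs (3.92%, 1.08 to 9.74%) and 4 and 88 at d3 (4.35%, 1.197 to 10.8%). In 3 of the libraries these intervals lie below 16.1%, and for Hdac3 in OPCs the interval includes it. In an alternative chosen after seeing the data, windows and sites were both taken from reads of score 100 only, and 17.5% of usable windows passed. The Hdac3 share of sites was then 16.2% (8.95 to 26.2%) in OPCs and 5.95% (2.89 to 10.7%) at d3. That of p300 was 9.01% (4.41 to 15.9%) in OPCs and 6.48% (2.65 to 12.9%) at d3.

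The 5 windows with the most called sites were at low read scores throughout. On chromosome 7 from 500001 to 1000000 there were 14 calls over the 4 libraries, and ratios of 1.301 (1.16 to 1.46) and 1.24 (1.13 to 1.36). On chromosome 3 from 500001 to 1000000 and on chromosome 2 from 1 to 500000 there were 13 calls each. The mean scores of the reads in these 3 windows were 35.5, 37.1 and 33.9. The window on chromosome 16 from 27000001 to 27500000, also with 13 calls, held 1186 RPM of Hdac3 in OPCs, 1067 RPM at d3, 756 RPM of p300 in OPCs and 862 RPM at d3, and is the densest of the 820. Its ratio was 1.57 (1.49 to 1.65) in OPCs and 1.24 (1.19 to 1.29) at d3, with a mean score of 45.2. A last one, on chromosome 16 from 38500001 to 39000000, had 12 calls and a mean score of 56.3.

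Reads in the 820 windows had lower scores than elsewhere in every library. The mean score of Hdac3 reads was 79.8 in OPCs and 81.7 at d3, against 85.8 and 87.4 in the other usable windows, differences of -6.09 and -5.71. That of p300 reads was 82.2 and 82.8, against 88.9 and 89.3, differences of -6.68 and -6.505. Among windows with at most 10% of 1 kb bins empty the difference averaged over libraries was -3.74, against -6.25 in all usable windows. Reads with the highest score of 100 made up 57.0%, 59.3%, 59.95% and 60.5% of reads inside (Hdac3 in OPCs and d3, then p300), against 64.9%, 66.8%, 69.4% and 69.4% outside. Reads with a score under 50 made up 19.5%, 17.1%, 16.6% and 15.9% inside and 12.1%, 10.3%, 8.72% and 8.25% outside. The mean read length was between 34.5 and 34.7 bp inside and outside. A median of 13.8% of the 1 kb bins of the windows held no read in any library, against 9.20% in the others.

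The Hdac3/p300 ratio was largest among the reads with the best scores. Over the 820 windows together it was 1.34 (1.33 to 1.35) in OPCs and 1.31 (1.31 to 1.32) at d3 among reads with a score of 100, each class of reads being scaled to its own total. Among reads with scores of 80 to 99 it was 1.26 and 1.26, and with 50 to 79 it was 1.24 and 1.23. Among reads with scores of 8 to 49 it was 1.12 (1.11 to 1.13) in OPCs and 1.12 (1.11 to 1.13) at d3. The excess of Hdac3 over p300 was present in all classes and smallest in the reads of lowest score. These are the reads that chose the windows, and 57.0% to 60.5% of them had a score of 100. The ratios by class are therefore a description, and a part of read quality in the excess was not tested. The density was low also outside the empty stretches. Per 1 kb bin with a read, the medians of the windows were 0.785 and 0.752 of those of all usable windows for Hdac3 and 0.619 and 0.612 for p300. Among the 2505 windows with at most 10% empty bins 212 passed (8.46%), beside 195 p300-rich ones.

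Over the whole genome the ratio was highest in windows of low density and low score. Windows were ranked by the summed density of the d3 libraries, divided into 10 deciles, and the ratio was read in the OPC libraries. The median ratio was 1.303 in the decile of lowest density, 1.07 in the fifth and 0.844 in the highest. With the stages exchanged it was 1.22, 1.12 and 0.812. The 4 lowest deciles at d3 held 245, 250, 186 and 92 of the 820 windows, and the others between 0 and 30 each. By mean read score at d3, the median ratio in OPCs was 1.299 in the lowest decile, 0.981 in the fifth and 0.947 in the highest. By score in OPCs, the median ratio at d3 was 1.201 in the lowest decile and highest in the next (1.23), reached its lowest value in the seventh (0.968) and was 0.999 in the highest. The part that density or score has in the ratio was not tested, and without an input library a lower yield of reads cannot be told apart from less of both proteins.

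**Figure D5:**
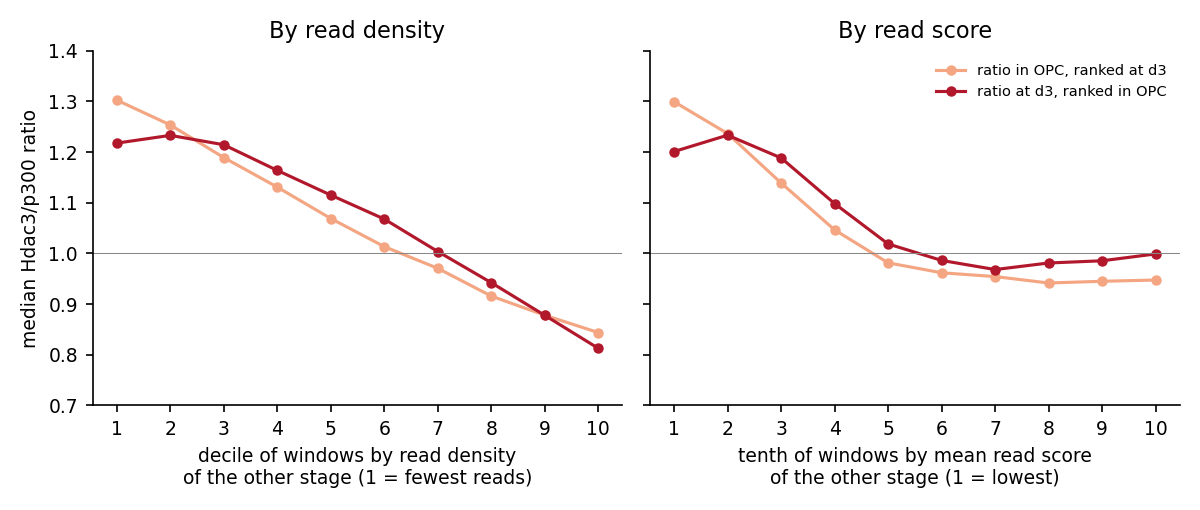
Median Hdac3/p300 ratio (y axis) of the usable windows in deciles by read density (left) or mean read score (right) of the other stage's libraries (x axis), for the ratio in OPCs and at d3. The ratio in OPCs falls from 1.303 to 0.844 with density; with score it falls from 1.299 to 0.981 over the first 5 deciles and is 0.947 in the last.

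The stage change of each protein was small in these windows. For Hdac3 the median log2 d3/OPC ratio was -0.05 (-0.06 to -0.05), a ratio of 0.963, against 0.01 in the other usable windows. For p300 it was -0.03 (-0.04 to -0.02), a ratio of 0.979, against -0.01 in the others. Among windows with at most 10% empty bins they were -0.03 for Hdac3 and -0.01 for p300, and with reads of score 100 the p300 value was -0.02. The counts behind these values are those that chose the windows, so they are a description. A d3/OPC ratio of Hdac3 above 1.2 was found in 1 of the 820 windows, beside 0.216% of all usable windows, and one under 1/1.2 in 24, beside 1.81%. For p300 there was 1 window above, beside 2.38%, and 5 under, beside 2.12%.

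By the interval of the ratio, Hdac3 was lower at d3 in 153 of the 820 windows (18.7%), beside 11.4% of all usable windows, and higher in 8 (0.976%), beside 9.76%. The p300 reads were lower in 36 (4.39%), beside 11.4%, and higher in 10 (1.22%), beside 10.6%. The windows held fewer p300 reads than the others, a median of 389.5 against 709 in OPCs, so their intervals were wider. Over the 820 windows the stage changes of Hdac3 and p300 had an r of 0.368 in log2, against 0.148 over all usable windows. The rule bounds the Hdac3/p300 ratio at both stages and so ties the changes of both proteins together. The higher r is therefore not a separate result about these windows.

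The largest stage changes were decreases. On chromosome 1 from 75000001 to 75500000 Hdac3 went from 90.1 to 58.8 RPM (ratio 0.653, 0.570 to 0.748) and p300 from 39.8 to 30.6 RPM (0.769, 0.603 to 0.982). On chromosome 5 from 134000001 to 134500000 Hdac3 went from 107 to 74.2 RPM (0.693, 0.613 to 0.784) and p300 from 64.8 to 41.6 RPM (0.642, 0.525 to 0.783). Both proteins were lower at d3 in both windows beyond counting error, and the reads there had mean scores of 56.2 and 68.3. Hdac3 decreases with p300 intervals that included 1 were found on chromosome 1 from 75500001 to 76000000 (0.696, 0.625 to 0.776), chromosome 7 from 7500001 to 8000000 (0.737, 0.654 to 0.831) and at the end of chromosome 11 from 87500001 to 87748537 (0.755, 0.662 to 0.861). The other large p300 decreases were on chromosome 1 from 32000001 to 32500000 (0.823, 0.662 to 1.02), chromosome 7 from 3000001 to 3500000 (0.823, 0.696 to 0.973) and chromosome 2 from 162500001 to 163000000 (0.833, 0.721 to 0.963).

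Increases were smaller. The largest for Hdac3 was on chromosome 20 from 32500001 to 33000000, from 200 to 246 RPM (ratio 1.23, 1.13 to 1.33), with p300 at 165 and 184 RPM. It was followed by chromosome 5 from 113000001 to 113500000 (1.17, 1.05 to 1.29), chromosome 17 from 76000001 to 76500000 (1.13, 1.03 to 1.25), chromosome 2 from 102000001 to 102500000 (1.12, 1.01 to 1.24) and chromosome 13 from 24000001 to 24500000 (1.104, 0.988 to 1.23). The largest for p300 was on chromosome 13 from 3500001 to 4000000, from 74.9 to 91.7 RPM (1.22, 1.04 to 1.44). The next were chromosome 3 from 70000001 to 70500000 (1.18, 0.993 to 1.397), chromosome 15 from 29000001 to 29500000 (1.17), chromosome 3 from 84000001 to 84500000 (1.17, 1.01 to 1.34) and chromosome 11 from 6500001 to 7000000 (1.16).

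The windows with the highest ratios included 3 that touch on chromosome 1. From 75000001 to 75500000 the ratio was 2.26 (1.85 to 2.78) in OPCs and 1.92 (1.59 to 2.33) at d3. From 74500001 to 75000000 it was 2.03 (1.70 to 2.43) and 1.69 (1.46 to 1.97), and from 75500001 to 76000000 it was 2.21 (1.88 to 2.595) and 1.63 (1.42 to 1.88). Their p300 densities lay between 30.6 and 62.7 RPM and their Hdac3 densities between 58.8 and 138 RPM, all far below the mean window. Between 41.2% and 59.6% of their 1 kb bins were empty, and their reads had mean scores of 56.2, 56.4 and 60.8. The window on chromosome 5 from 134000001 to 134500000 had ratios of 1.65 (1.403 to 1.95) and 1.79 (1.52 to 2.11).

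In 2 of the 10 highest windows the ratio was much lower without their called sites. On chromosome 13 from 36500001 to 37000000 the densities were 231 RPM and 233 RPM for Hdac3 and 146 RPM and 139 RPM for p300, with ratios of 1.58 (1.42 to 1.77) and 1.68 (1.53 to 1.84). Without the called site the ratios there were 1.31 and 1.38. On chromosome 1 from 70000001 to 70500000 the ratios were 1.75 (1.54 to 2.00) and 1.53 (1.38 to 1.71), and without the called sites 1.397 and 1.19, under the threshold at d3. On chromosome 13 from 20500001 to 21000000 the ratios were 1.48 (1.295 to 1.697) and 1.44 (1.29 to 1.62), and they were 1.46 and 1.47 without the site.

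The remaining 3 of the 10 held no called site. On chromosome 11 from 38500001 to 39000000 Hdac3 stood at 111 RPM at both stages and p300 at 74.0 and 74.4 RPM, with ratios of 1.503 (1.29 to 1.76) and 1.497 (1.32 to 1.699) and a mean score of 86.1. At the start of chromosome 9, from 1 to 500000, the ratios were 1.54 (1.35 to 1.76) and 1.48 (1.33 to 1.66). On chromosome 11 from 23000001 to 23500000 Hdac3 was at 153 and 151 RPM and p300 at 106 and 103 RPM, with ratios of 1.45 (1.27 to 1.66) and 1.47 (1.32 to 1.63) and a mean score of 83.2. In these 3 windows neither protein differed between the stages beyond counting error.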

How the data were processed

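The deposited files list the aligned reads of 1 library each, with start, end, strand and a score, in rn4 coordinates. The submitters' processing notes name build rn4 and MACS 1.4.0 but no roles. The aligner and read filters are not stated there. The score deposited by the authors is a whole number from 8 to 100. Reads were counted by their 5' end in windows of 500 kb and divided by the library's total on chromosomes 1 to 20 (for Hdac3, 4163537 reads in OPCs and 8556198 at d3, and for p300, 3364825 and 4569985). Windows with under 100 reads in any library were left out (44).

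Intervals of ratios are exact conditional binomial, of shares exact Clopper-Pearson and of medians exact from order statistics, all at 95%. They cover counting error or, for medians, the position of the median with windows taken as independent. No test was made between groups of 1 library. Sites were called after moving reads 100 bp and thinning each library to 3364825 reads (random seeds from 1 upward). A called 1 kb bin had a Poisson tail under 1e-05 and was at least 3-fold over the highest of the genome, 10 kb and 50 kb means. Adjacent called bins were merged. The window rule and the site caller were tested on simulated data. Alternatives changed the window size and start, threshold, minimum reads, scaling, strand, read score, extreme bins and site background.

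The members, the rule and the described measures were chosen with earlier results of these data known. Named windows are the 10 of highest lower ratio, the 5 longest runs, the 5 nearest to the threshold on either side, the 5 largest changes of each protein in each direction and the 5 with most sites. Python 3.11.15, numpy 2.4.6, scipy 1.17.1 and matplotlib 3.10.9 were used.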

Additional observations from a re-analysis of the deposited data

Results flagged for a closer look

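Chromosome X was outside the window rule and showed a high ratio as well. Of its 320 usable windows, scaled by the same totals of chromosomes 1 to 20, 127 exceeded 1.2 at both stages (39.7%), against 16.1% on those chromosomes. The median ratio was 1.17 in OPCs and 1.43 at d3. Median densities were 121 and 122 RPM for Hdac3 and 103 and 85.8 RPM for p300 in OPCs and at d3. The median d3/OPC ratio of p300 was 0.832, against 0.990 over the usable windows of chromosomes 1 to 20. For Hdac3 it was 1.01, against 1.002. The p300 density was lower at d3 in 310 of the 320 windows, and the matching count on chromosomes 1 to 20 is not given here. With 1 library per group this difference between stages was not tested. The longest run there spanned 8 windows.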

How the results depend on the processing

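No paired analysis was possible because each group held 1 library. Median densities stayed below the mean under the alternatives tried, and the score difference and stage changes stayed below 0. Sizes moved, and the share of sites changed sides of the share of windows. The windows numbered 390 with 1 Mb windows (15.2% of usable windows), 1690 at a threshold of 1.1 (33.2%) and 165 at 1.3 (3.25%). They numbered 307 with scaling to the median ratio (6.04%) and 212 among windows with at most 10% empty bins (8.46%). The limit on empty bins, like reads with a score of 100, was chosen after seeing the data. The share of windows in runs was 88.3% at 1.1, 35.8% at 1.3, 69.2% with at least 300 reads per library and 44.6% with median scaling. It was 63.5% and 63.1% with plus and minus strand reads. With few empty bins it was 27.8%, where the windows left out also break runs. The shares in runs also depend on how many windows pass, so they do not measure clustering alone. Relative Hdac3 density over both stages was 0.763, and 0.745 with 1 Mb windows, 0.735 with scores of at least 50, 0.810 at 1.1, 0.712 at 1.3, 0.727 with median scaling, 0.776 on the plus strand, 0.722 with scores of 100 and 0.786 with few empty bins. That of p300 was 0.583, and 0.553 with scores of at least 50, 0.646 at 1.1, 0.516 at 1.3, 0.537 with median scaling and 0.545 with scores of 100. The score difference, averaged over libraries, was -6.25, and -6.87 with windows moved by 250 kb, -7.41 with 1 Mb, -1.001 among reads of at least 50 (a narrower range by construction), -5.65 at 1.1, -7.78 at 1.3, -5.51 with at least 300 reads, -6.66 on the plus strand and -3.74 with few empty bins. It could not be computed where all scores are 100.

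The log2 stage change of Hdac3 was -0.046 with scores of at least 50, -0.040 at 1.1, -0.074 at 1.3, -0.039 with scores of 100 and -0.032 with few empty bins. That of p300 was -0.018 with scores of at least 50, -0.041 with median scaling, -0.039 on the plus strand, -0.018 with scores of 100 and -0.013 with few empty bins. The share of sites in the windows, over all libraries, was 18.6%, and 20.9% with windows moved by 250 kb, 37.6% at 1.1, 4.39% at 1.3, 8.15% with median scaling, 24.5% without bins over 10 times the mean, 16.2% and 22.6% on the plus and minus strands, 8.57% with scores of 100, 5.55% with few empty bins and 16.2% without thinning. These shares largely move with the share of windows chosen in the same way. Against that share, it was above in the report's setting (18.6% against 16.1%). It was also above at 1.1 (37.6% against 33.2%), at 1.3 (4.39% against 3.25%) and with median scaling (8.15% against 6.04%). It was below with scores of at least 50 (16.6%, 14.1 to 19.3%, against 16.9%). It was also below with scores of 100 (8.57% against 17.5%) and with few empty bins (5.55% against 8.46%). In the remaining alternatives it was above. Parts of 50 kb above a ratio of 1 made up 96.5% with 1 Mb windows, 96.9% with scores of at least 50, 94.7% at 1.1, 98.9% at 1.3, 96.7% with median scaling, 93.9% and 94.1% on the strands, 95.7% with scores of 100 and 98.1% with few empty bins. The cause of the other moves was not tested. Depth limits single windows: the median window held 389.5 p300 reads in OPCs, so ratios near 1.2 are not separated from the threshold.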
